A study of Homo sapiens with 6 samples.

Results

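The genes of the translation initiation factors (symbols beginning with EIF and a digit) were compared between HEK293T cells that overexpress PRMT1 and their vector controls. Members were the protein-coding genes with such a symbol, the eIF2 alpha kinases (EIF2AK) and the eIF4E-binding proteins (EIF4EBP) included. The rule uses names and gene types only and gave 56 genes of the 57500 gene identifiers in the table. A further 87 EIF-named identifiers were not protein-coding, most of them processed pseudogenes (77), and were left out. Of the 56 members, 53 reached at least 1 TPM (a transcript level scaled by gene length and by the total of the library) in at least 3 of the 6 libraries and were tested. EIF1AY, EIF4E1B and EIF4EBP3 were not.

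HEK293T is an established human embryonic kidney line that carries the SV40 large T antigen. The 3 PRMT1-OV libraries came from cells transfected with PRMT1 in a pcDNA3 plasmid by means of PolyJet, and the 3 Mock libraries from cells labelled as vector control. Whether the Mock cells received an empty plasmid or PolyJet is not stated. All cells were labelled wild type and were grown in DMEM with serum, penicillin and streptomycin, and the time after transfection is not given in the sources used here. PRMT1 is the main enzyme that forms asymmetric dimethylarginine on proteins, and the comparison asks which RNAs differ when it is overexpressed.

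Initiation brings the initiator tRNA and the ribosome to the start codon of an mRNA. The factor eIF2 carries the initiator tRNA to the small ribosomal subunit together with eIF1, eIF1A, eIF3 and eIF5, while eIF4E, eIF4G and eIF4A bind the cap and open the leader. At the start codon eIF5 prompts eIF2 to hydrolyse its GTP, and eIF2B then recharges eIF2. Kinases that phosphorylate the alpha subunit of eIF2 turn it into an inhibitor of eIF2B, the step at which many stresses slow protein synthesis.

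PRMT1 itself stood at 71656, 62895 and 84923 TPM in the PRMT1-OV libraries, against 378, 397 and 368 TPM in the Mock libraries, so the library labels and the target were in accord. Reads recovered from the TPM values came to 19860352 to 23161413 per PRMT1-OV library and 18183763 to 20421255 per Mock library. On the first principal component, which held 69.2% of the variance, PRMT1-OV replicate 2 (50.2) and Mock replicate 3 (-47.8) lay farther out than the other libraries of their groups (33.9 and 35.3 in PRMT1-OV, -36.0 and -35.6 in Mock). PRMT1-OV replicate 2 had the highest of the 3 PRMT1-OV values for 44 of the 53 tested members (83.0%, against 59.9% of all tested genes), and Mock replicate 3 had the lowest Mock value for 35 of them (66.0%, against 55.6%). The keratin genes KRT8 and KRT18 were expressed, the 5 epithelial markers summed to 163 to 180 TPM in PRMT1-OV and 167 to 191 TPM in Mock libraries, and KRT19 was at or near 0. Of the 5 kidney-development markers 4 were tested, and PAX8 was near 0. The 4 blood markers summed to 0.0811 to 0.165 TPM in PRMT1-OV and 0 to 0.578 TPM in Mock libraries, with CD3E listed at 0 throughout. Of the 4 neuronal and mesenchymal genes, VIM, NEFL and NEFM fell in PRMT1-OV cells, by 0.49, 0.41 and 0.77 on the log2 scale, and CDH2 did not pass (a log2 fold change of 0.15). COL1A1, the 1 tested gene of the 4 endothelial and fibroblast markers, fell by 0.57. The part of these differences in the results below was not tested.

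Sequences in front of EIF5 and EIF2AK3, the members with the largest rises, are printed to show the letters next to the starts of these RNAs. EIF2AK3 and EIF2AK3-DT, a noncoding RNA read in the opposite direction from the same place, were both higher in PRMT1-OV cells. The 138 bases printed for EIF2AK3 are those of the RefSeq window before its start (GRCh38.p14, chr2:88627577-88627714, minus strand) that lie outside the exons of EIF2AK3 in GENCODE 29, and all of them lie in the first exon of EIF2AK3-DT. Capitals mark CCAAT or its reverse complement ATTGG; a further CCAAT, 53 bases before the start, lies in an EIF2AK3 exon and is not printed. For EIF5, whose windows before the starts in RefSeq overlap exons of its own transcripts, only the motifs with 10 bases on either side are printed, as plus-strand sequence. They are CCAAT 109 and 77 bases before the first start (chr14:103334118-103334142 and chr14:103334150-103334174), and TGACTCA 77 bases and its reverse complement TGAGTCA 50 bases before the second (chr14:103334801-103334827 and chr14:103334828-103334854).
EIF2AK3: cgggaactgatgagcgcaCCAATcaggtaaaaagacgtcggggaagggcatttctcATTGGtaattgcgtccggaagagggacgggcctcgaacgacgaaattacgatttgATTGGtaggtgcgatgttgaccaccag
EIF5 first start, distal: cgcaagcgaaCCAATgacgagcgag
EIF5 first start, proximal: aggcctccagCCAATgggcagtgag
EIF5 second start, distal: ccgctcgggcTGACTCAggcttcagct
EIF5 second start, proximal: gctgcatttgTGAGTCAtcgcgcgctc

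Motifs were searched on both strands in the 250 bases before each start, and they were chosen after these sequences had been seen. CCAAT was in 32.0% of all 35116 RefSeq promoters and in 22 of the 60 promoters of tested members, which covered 44 of the 53 genes. TGACTCA was in 4.2% of all promoters and in 3 of the 60, and CACGTG in 6.34% and in 11 of the 60. TGACGTCA (1.65% of all) and TGATGCAA (0.772%) were in none of the 60. The window before EIF2S1 held none of the 5 motifs and lay wholly within an EIF2S1 exon of GENCODE 29, so it is not printed. A motif is a run of letters here, and no binding was measured.

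Over all tested members, 10 were higher and 5 were lower in PRMT1-OV than in Mock cells at an adjusted p below 0.05 (limma on log2(TPM + 1), Benjamini-Hochberg over 15341 genes). That is 18.9% higher, against 40.3% of all tested genes, and 9.43% lower, against 8.64% of all tested genes. In either direction 15 members (28.3%) passed, against 49.0% of all tested genes. The median log2 fold change (log2FC, from the fit on log2(TPM + 1)) was 0.07 over the members and 0.30 over all tested genes, and 42 of the 53 members lay below the median of all genes. At a log2FC of at least 0.5 in either direction, 6 members were higher (background 32.7%) and 0 were lower (background 3.42%), the lowest member being EIF2S3B at -0.33, which did not pass. Values of the groups did not overlap for 27 members (background 61.4%), 20 of them higher and 7 lower (background 49.8% and 11.6%), and all 15 that passed the test were among them. In bulk RNA, a change in the share of cells that hold an RNA and a change in its amount per cell cannot be told apart. Nothing in the labels says that replicates came from separate cultures, so each p reflects how far these 6 libraries vary, and that variation may be technical.

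How many members rose or fell depended on how the libraries were scaled. After median-of-ratios scaling, which sets the median difference over all genes near 0 (0.01), 4 members were higher and 28 were lower, and their median log2FC was -0.28. These 32 calls are 60.4% of the members, against 47.6% of all tested genes, which then split into 23.5% higher and 24.1% lower. After quantile normalization 14 members were higher and 9 were lower (23 in either direction, 43.4%, against 39.7% of all genes, of which 20.3% higher and 19.4% lower). With PRMT1 taken out of the table and the rest rescaled, 21 were higher (39.6%) and 0 were lower (0 also at an unadjusted limma p below 0.05), against 54.9% of all genes in either direction, 49.2% higher and 5.74% lower. A correction for GC content gave 4 higher and 31 lower, 66.0% of the members, against 49.2% of all genes with a GC value, 23.1% higher and 26.1% lower. Without PRMT1-OV replicate 2 and Mock replicate 3, 13 members were higher and 14 were lower (all genes 37.2% and 13.8%, 51.0% in all). The members' median was below that of all genes under the deposited scale, median of ratios, rescaling without PRMT1 and GC correction, and it was 0.01 against -0.01 after quantile normalization.

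The members are highly expressed, and level is a property that moves with these counts. Their median level over the 6 libraries was 92.7 TPM, against 9.77 TPM for all tested genes, and 33 of the 53 were in the highest-expressed 20% of tested genes by level (at least 41.7 TPM, 3069 genes). In that 20% the median log2FC of all genes was -0.01 and that of the members in it was 0.01, with 22.8% of its genes higher and 24.7% lower. The 10 members that rose had a median level of 38.7 TPM and a median exonic GC content of 45.0%. The 5 that fell had 312 TPM and 51.2%, and the 38 others 99.2 TPM and 45.9%. The part of level and GC content in the calls was not tested beyond the scalings given here.

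**Figure D1:**
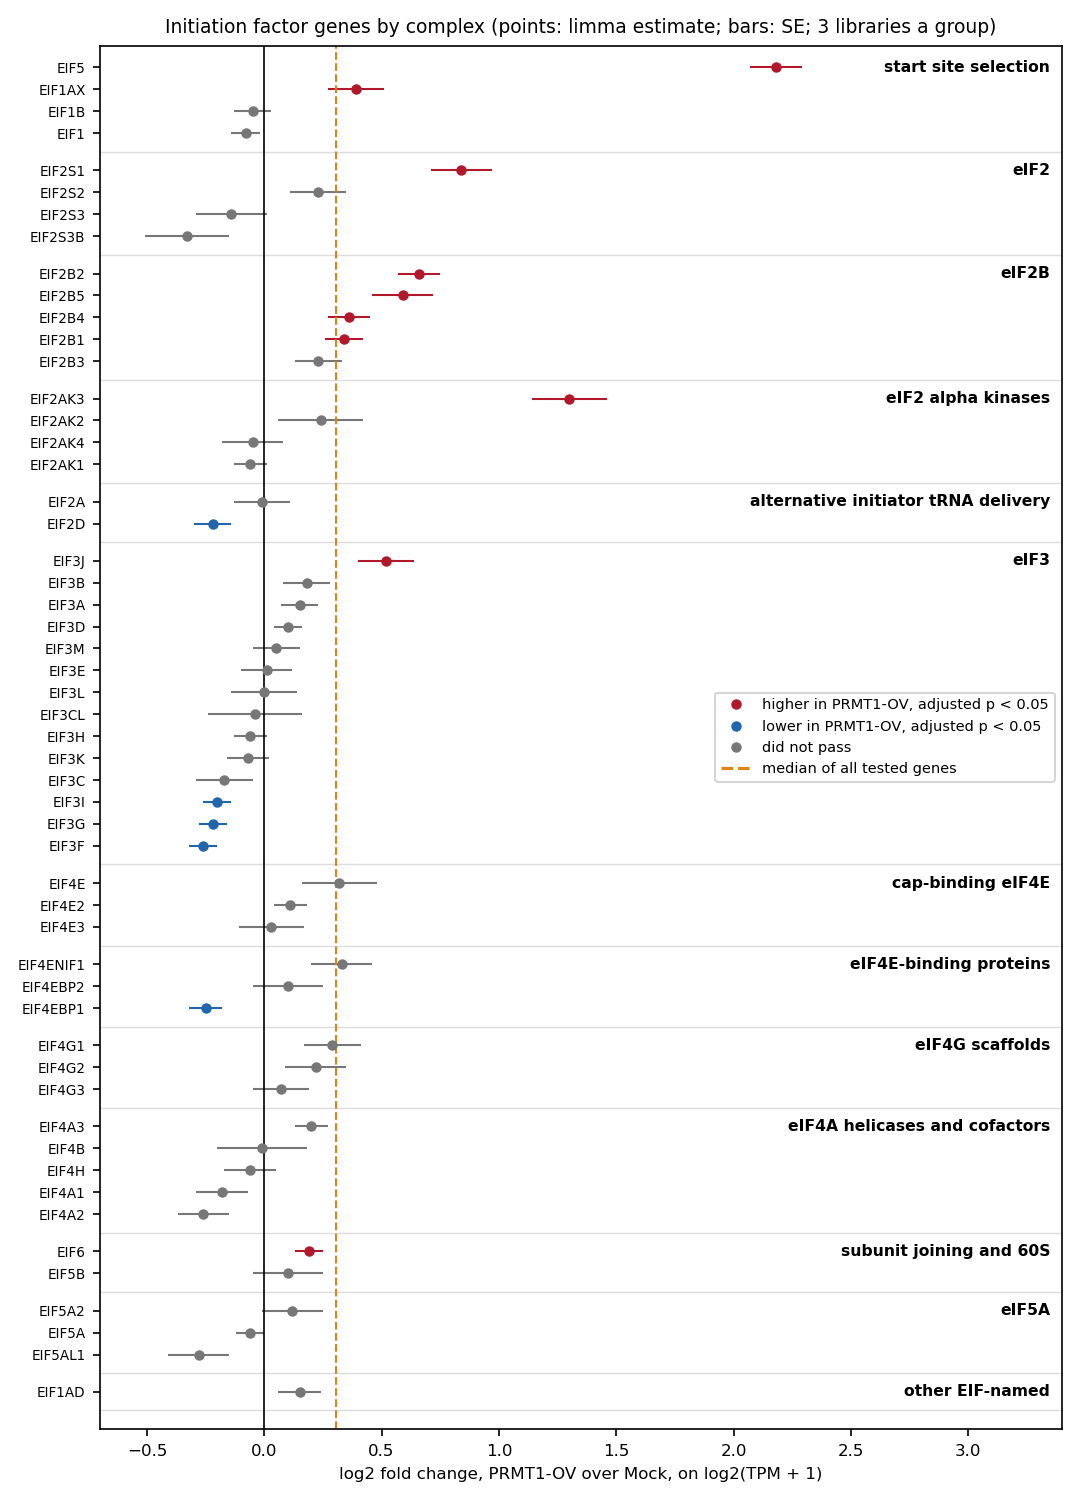
Log2 fold change of each tested member, PRMT1-OV over Mock on log2(TPM + 1), as points with the standard error, grouped by complex, 3 libraries a group. Red points rose and blue points fell at an adjusted p below 0.05 on the deposited scale. EIF5 (2.18) and EIF2AK3 (1.30) lie far to the right, and most members lie left of the dashed line, the median of all tested genes (0.30). After median-of-ratios scaling only EIF5, EIF2AK3, EIF2S1 and EIF2B2 still passed as higher, and 28 members passed as lower. Under that scaling 23.5% of all tested genes were higher and 24.1% were lower, with a median of 0.01.

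EIF5, EIF2AK3, EIF2S1 and EIF2B2 passed as higher on the deposited scale and under all 16 alternatives tried, which were other pseudocounts, filters, scalings, a GC correction, a replicate block and leaving out libraries. EIF5, the GTPase-activating protein of eIF2 (chr14:103333544-103345025, plus strand, GENCODE 29), stood at 46.6, 56.7 and 44.5 TPM in PRMT1-OV libraries, against 10.1, 10.1 and 9.87 TPM in Mock libraries. Every PRMT1-OV value was more than 4 times every Mock value, and the Mock libraries were nearly equal. The means were 49.2 ± 6.53 TPM in PRMT1-OV and 10.0 ± 0.141 TPM in Mock cells (SD, n = 3 each), a 4.91-fold difference. The log2FC was 2.18 (SE 0.11, limma adjusted p = 4.89e-05), and it lay between 1.75 and 2.29 over the alternatives. Only 39 of the 15341 tested genes had a larger one. The recovered reads behind it were 7850 over the 3 PRMT1-OV libraries and 1542 over the 3 Mock libraries.

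The other genes of start site selection had smaller log2FC values. EIF1AX, the X-linked gene of eIF1A, which helps the small subunit scan for the start codon, stood at 129, 166 and 122 TPM in PRMT1-OV libraries, against 106, 112 and 96.8 TPM in Mock libraries. Its groups did not overlap, and it rose by a log2FC of 0.39 (SE 0.12, limma adjusted p = 0.0306). The call was lost without Mock replicate 1 (adjusted p = 0.0707), without Mock replicate 3 (0.0811) and after median-of-ratios scaling (0.04 on the log2 scale, adjusted p = 0.727), and the sign turned after GC correction (-0.11). EIF1, which guards against starts at the wrong codon, had 755, 772 and 718 TPM in PRMT1-OV and 802, 802 and 770 TPM in Mock libraries. Its paralog EIF1B had 171, 184 and 154 TPM in PRMT1-OV and 181, 170 and 177 TPM in Mock libraries. Neither passed (log2FC values of -0.08 and -0.05), and both passed as lower after median-of-ratios scaling (-0.44 and -0.41). EIF1AD, whose protein has a domain like that of eIF1A, had a log2FC of 0.15 and did not pass on the deposited scale; it passed as higher without PRMT1 (0.26).

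Among the 4 eIF2 subunit genes, EIF2S1 was the one that passed on the deposited scale, where 40.3% of all tested genes rose and 8.64% fell. It encodes the alpha subunit, the one that the stress kinases phosphorylate (chr14:67359997-67386516, plus strand). Its level was 57.9, 73.3 and 51.3 TPM in PRMT1-OV libraries, against 33.4, 35.0 and 31.4 TPM in Mock libraries. The groups did not overlap, and PRMT1-OV replicate 2 was the highest of the 6 libraries. The difference was 1.83-fold, with a log2FC of 0.84 (SE 0.13, limma adjusted p = 0.0018) and a range of 0.37 to 0.95 over the alternatives. The beta and gamma subunits EIF2S2 and EIF2S3 are far more abundant as RNA, at 319 to 424 TPM and 350 to 472 TPM in PRMT1-OV libraries and 286 to 335 TPM and 354 to 475 TPM in Mock libraries. Their groups overlapped, and neither passed on the deposited scale (log2FC values of 0.23 and -0.14). EIF2S2 passed as higher after quantile normalization (0.38), without PRMT1 (0.34) and without both libraries that stand apart (0.18). EIF2S3 passed as lower after median-of-ratios scaling (-0.50), GC correction (-0.55) and without both libraries that stand apart (-0.41), and it had -0.28, not past the threshold, without either of them alone. EIF2S3B, a copy of EIF2S3 at 0.631 to 0.960 TPM in PRMT1-OV and 1.13 to 1.66 TPM in Mock libraries whose reads may belong to EIF2S3, did not pass on the deposited scale (-0.33). It passed as lower after median-of-ratios scaling (-0.51), quantile normalization (-0.77) and GC correction (-0.75).

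Of the 5 subunits of eIF2B, the exchange factor that recharges eIF2 with GTP, 4 rose on the deposited scale, where 40.3% of all tested genes did, and the median log2FC was 0.36. Their summed level was 195, 216 and 198 TPM in PRMT1-OV libraries, against 155, 162 and 141 TPM in Mock libraries, without overlap. EIF2B2, the beta subunit (chr14:75002911-75012366, plus strand), had 52.1, 54.1 and 54.7 TPM in PRMT1-OV libraries, against 32.8, 37.6 and 30.6 TPM in Mock libraries. Its PRMT1-OV libraries lay close together and well above all Mock libraries, a 1.59-fold difference with a log2FC of 0.66 (SE 0.09, limma adjusted p = 0.0012) and a range of 0.29 to 0.77 over the alternatives.

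EIF2B5, the epsilon subunit that catalyses the exchange (chr3:184135038-184146112, plus strand), had 19.3, 21.2 and 19.9 TPM in PRMT1-OV libraries, against 13.9, 15.1 and 10.6 TPM in Mock libraries. The groups did not overlap, and the log2FC was 0.59 (SE 0.13, limma adjusted p = 0.00884). EIF2B4 (delta) rose by 0.36 and EIF2B1 (alpha) by 0.34 on the log2 scale (adjusted p = 0.016 and 0.00894), while EIF2B3 (gamma), at 0.23, did not pass. EIF2B4 lost its call without Mock replicate 1 (adjusted p = 0.0525). Among the 5 subunits EIF2B2 alone passed after median-of-ratios scaling, quantile normalization or GC correction, and all 5 passed as higher without PRMT1. For EIF2B5 the median-of-ratios value was 0.25 (adjusted p = 0.071).

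The 4 eIF2 alpha kinases differ in the stress they sense. EIF2AK3 (PERK), which answers to unfolded proteins in the endoplasmic reticulum (chr2:88556741-88627576, minus strand), had 6.56, 7.11 and 5.94 TPM in PRMT1-OV libraries, against 2.35, 2.38 and 1.54 TPM in Mock libraries. Every PRMT1-OV value was above every Mock value. The difference was 3.13-fold in mean TPM, and the log2FC on log2(TPM + 1), which understates that of low genes, was 1.30 (SE 0.16, limma adjusted p = 0.000644), with a range of 0.70 to 1.62 over the alternatives. The recovered reads were 666 over the PRMT1-OV and 206 over the Mock libraries, so this estimate rests on less depth than that of EIF5. EIF2AK2 (PKR), EIF2AK4 (GCN2) and EIF2AK1 (HRI), which sense double-stranded RNA, uncharged tRNA and lack of haem, did not pass on the deposited scale (log2FC values of 0.24, -0.05 and -0.06). After median-of-ratios scaling EIF2AK4 and EIF2AK1 passed as lower (-0.39 and -0.41), as they did after GC correction, and EIF2AK4 also after quantile normalization (-0.41). Whether EIF2AK3 differed from the other kinases in its change was not tested.

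The divergent RNA EIF2AK3-DT, named after its values were seen, had 2.21, 3.59 and 2.66 TPM in PRMT1-OV libraries, against 0.485, 0.47 and 0.518 TPM in Mock libraries. Its log2FC was 1.34 (SE 0.18, limma adjusted p = 0.00102). The genes share 38 bases of exon on opposite strands, and the strand setting of the counting is not given in the sources used here. EIF2AK3 also shares 14.4% of its exonic length with the antisense gene AC104134.1, which was listed at 0, 0.178 and 0 TPM in PRMT1-OV and 0.366, 0.384 and 0.391 TPM in Mock libraries. EIF3J-DT had a log2FC of 0.49 (adjusted p = 0.0184), lost after median-of-ratios scaling (0.18), and EIF2B5-DT had -0.09 (adjusted p = 0.876).

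**Figure D2:**
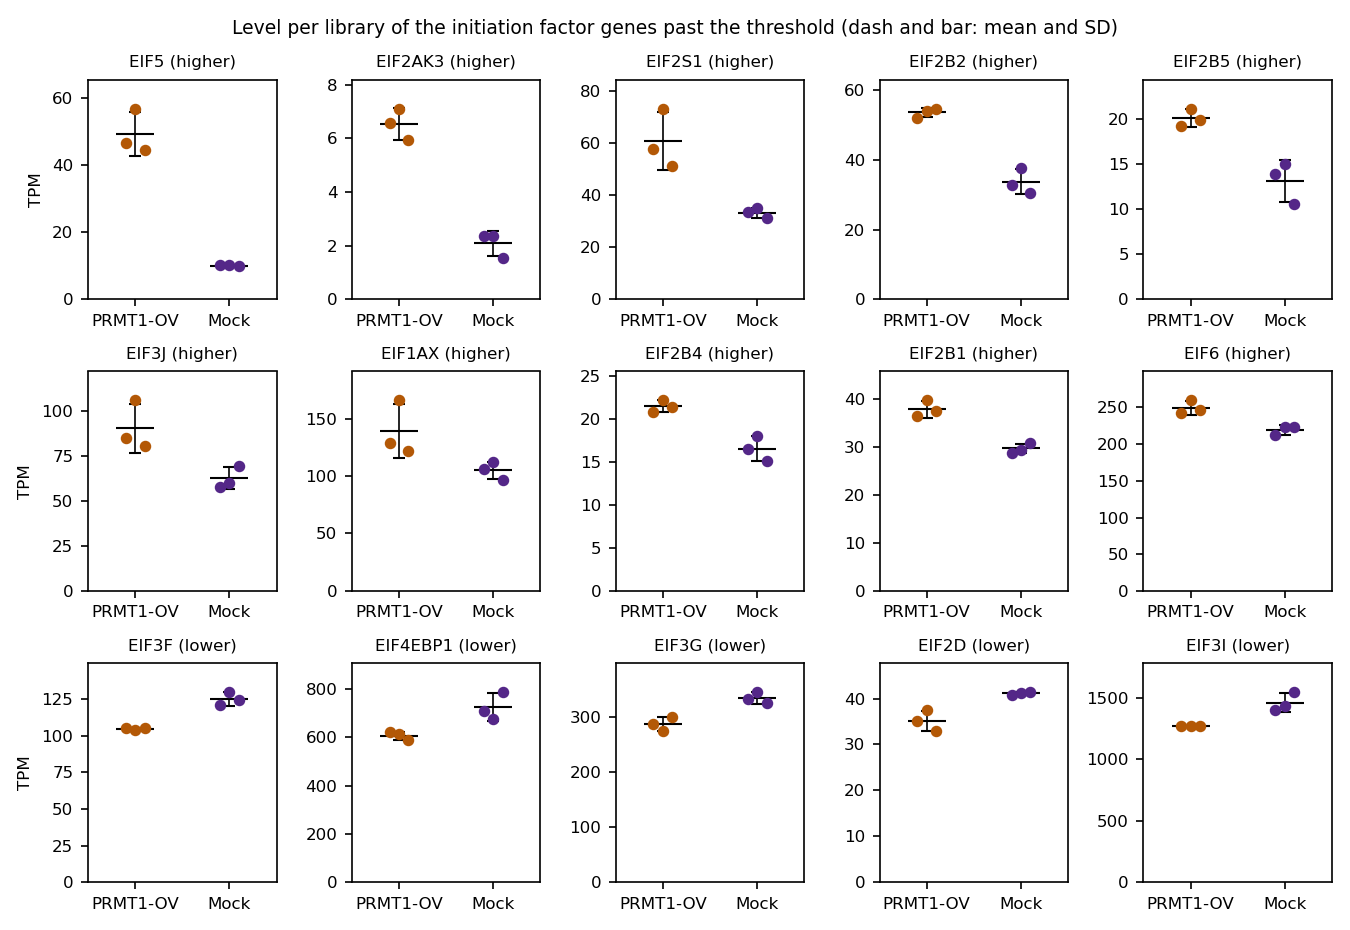
TPM in each of the 3 PRMT1-OV (left) and 3 Mock (right) libraries for the 15 members past the threshold on the deposited scale, with the mean and SD; each panel has its own axis from 0. The groups overlap in no panel, and the gap is wide for EIF5 (44.5 to 56.7 TPM in PRMT1-OV against 9.87 to 10.1 TPM in Mock libraries) and narrow for EIF6 (242 to 260 TPM in PRMT1-OV against 212 to 223 TPM in Mock libraries).

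The initiator tRNA can also be brought by factors other than eIF2. EIF2D had 35.1, 37.4 and 33.0 TPM in PRMT1-OV libraries and 40.8, 41.2 and 41.5 TPM in Mock libraries. It fell by 0.22 on the log2 scale (limma adjusted p = 0.0472), but the call was lost without any one of Mock replicates 1, 2 and 3 or PRMT1-OV replicates 1 and 3 (adjusted p 0.0635 to 0.149) and without PRMT1 (-0.12). Other scalings gave larger falls that passed, -0.57 after median of ratios, -0.45 after quantile normalization and -0.62 after GC correction. EIF2A had a log2FC of -0.01 and did not pass on the deposited scale, and it passed as lower after median-of-ratios scaling (-0.36) and GC correction (-0.47).

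The 14 genes of eIF3, the large scaffold that joins the small subunit to the mRNA, gave 1 higher and 3 lower on the deposited scale, with a median log2FC of -0.02, where all tested genes gave 40.3% higher and 8.64% lower. After median-of-ratios scaling 0 of the 14 were higher and 11 were lower, where all tested genes gave 23.5% and 24.1%. EIF3J, the loosely bound subunit (chr15:44537057-44563029, plus strand), had 84.8, 106 and 80.3 TPM in PRMT1-OV libraries, against 58.0, 60.2 and 69.4 TPM in Mock libraries. The groups did not overlap, and it rose by 0.52 on the log2 scale (SE 0.12, limma adjusted p = 0.0101), with 0.17 (adjusted p = 0.3) after median-of-ratios scaling and 0.05 after GC correction. EIF3F, EIF3G and EIF3I fell by 0.26, 0.22 and 0.20 (adjusted p = 0.0126, 0.0211 and 0.0235).

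EIF3I is the most abundant of the eIF3 RNAs, at 1267, 1272 and 1271 TPM in PRMT1-OV libraries and 1399, 1428 and 1548 TPM in Mock libraries. Its PRMT1-OV libraries were almost equal, and all lay below the Mock libraries. EIF3F had 105, 104 and 105 TPM in PRMT1-OV and 121, 130 and 124 TPM in Mock libraries, and EIF3G had 289, 275 and 300 TPM in PRMT1-OV and 334, 347 and 326 TPM in Mock libraries. These small differences were sensitive to single libraries. EIF3F lost its call without Mock replicate 2 or PRMT1-OV replicate 1 (adjusted p = 0.053 and 0.0512), EIF3G without Mock replicate 1, Mock replicate 2 or PRMT1-OV replicate 1 (0.0676, 0.0767 and 0.0717), and EIF3I without PRMT1-OV replicate 1 or 3 (0.0815 and 0.0626). Without PRMT1 none of these 3 passed (-0.15, -0.11 and -0.09 for EIF3F, EIF3G and EIF3I). After quantile normalization EIF3G had -0.09 and EIF3I had 0.10, neither past the threshold, and EIF3F passed as lower (-0.28). Larger falls that passed came for EIF3F, EIF3G and EIF3I after median-of-ratios scaling (-0.61, -0.58 and -0.56). After GC correction these genes also passed as lower (-0.70, -0.40 and -0.52).

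The other 10 eIF3 genes did not pass on the deposited scale, with log2FC values from -0.17 (EIF3C) to 0.18 (EIF3B). EIF3C and EIF3CL are near-identical copies, and EIF3L shares 41.1% of its exonic length with the overlapping transcript AL022311.1, so their values are uncertain. EIF3A, which with EIF3B forms the core of the complex, had 0.15 on the deposited scale, 0.26 as a call after quantile normalization and -0.20 as a call after median-of-ratios scaling.

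None of the cap-binding eIF4E genes passed on the deposited scale, where 40.3% of all tested genes rose and 8.64% fell. Of these cap-binding genes, 0 of the 3 tested had an unadjusted limma p below 0.05. EIF4E, the main cap-binding protein, had 20.7, 25.9 and 19.8 TPM in PRMT1-OV and 19.7, 19.1 and 14.0 TPM in Mock libraries, a log2FC of 0.32 (adjusted p = 0.128). EIF4E2, which binds the cap and represses translation, had 39.4, 42.5 and 39.0 TPM in PRMT1-OV and 37.2, 37.7 and 36.7 TPM in Mock libraries. EIF4E3 had 9.30, 11.9 and 9.37 TPM in PRMT1-OV and 10.5, 10.7 and 8.47 TPM in Mock libraries. The PRMT1-OV values were above the Mock values for EIF4E and EIF4E2, and the groups overlapped for EIF4E3. Both EIF4E2 (-0.24) and EIF4E3 (-0.29) passed as lower after median-of-ratios scaling and after GC correction, and EIF4E3 also after quantile normalization (-0.40). Without PRMT1, EIF4E (0.42) and EIF4E2 (0.22) passed as higher.

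EIF4EBP1, whose protein holds eIF4E away from eIF4G until mTOR phosphorylates it, fell on the deposited scale. It had 620, 612 and 589 TPM in PRMT1-OV libraries, against 707, 677 and 789 TPM in Mock libraries, without overlap. The log2FC was -0.25 (SE 0.07, limma adjusted p = 0.0207). The call was lost without Mock replicate 1 or PRMT1-OV replicate 1 or 3 (adjusted p = 0.051, 0.054 and 0.066), after quantile normalization (-0.02) and without PRMT1 (-0.14). Larger falls that passed came after median-of-ratios scaling (-0.61) and GC correction (-0.34). EIF4EBP2, a paralog, had 72.1, 80.7 and 67.9 TPM in PRMT1-OV and 76.0, 78.9 and 53.9 TPM in Mock libraries, which overlap. EIF4ENIF1 (4E-T), which carries eIF4E into the nucleus and into P-bodies, had a log2FC of 0.33 (adjusted p = 0.0649). It passed as higher without Mock replicate 3 (0.41, adjusted p = 0.0435), without both libraries that stand apart (0.31) and without PRMT1 (0.44), and it had 0.00 after median-of-ratios scaling and -0.07 after quantile normalization.

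The 3 scaffold genes and the 5 genes of helicases and cofactors held 0 calls by limma on the deposited scale. Over all tested genes 40.3% rose and 8.64% fell. In these sets EIF4G1 and EIF4A3 had an unadjusted limma p below 0.05. EIF4G1, the main scaffold, had 194, 208 and 207 TPM in PRMT1-OV and 179, 186 and 137 TPM in Mock libraries, without overlap (log2FC 0.29, adjusted p = 0.0729). It passed as higher without Mock replicate 2, after quantile normalization and without PRMT1. EIF4G2 (DAP5), which lacks the site for eIF4E, had 200, 252 and 191 TPM in PRMT1-OV and 197, 193 and 158 TPM in Mock libraries, and EIF4G3 had 28.0, 34.4 and 26.5 TPM in PRMT1-OV and 29.2, 29.6 and 25.6 TPM in Mock libraries. EIF4G2 passed as higher after quantile normalization (0.31) and as lower after GC correction (-0.23), and EIF4G3 as lower after median-of-ratios scaling and GC correction (-0.28 and -0.30).

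The groups of both eIF4A paralogs overlapped. EIF4A2 had 186, 229 and 176 TPM in PRMT1-OV and 245, 248 and 212 TPM in Mock libraries (log2FC -0.26, adjusted p = 0.0905), and it passed as lower without PRMT1-OV replicate 2 (-0.37), without both libraries that stand apart (-0.45), after median-of-ratios scaling (-0.62) and after GC correction (-0.73). EIF4A1 had 23.1, 25.8 and 23.9 TPM in PRMT1-OV and 30.9, 28.0 and 24.2 TPM in Mock libraries. Its exons share 41.1% of their length with AC016876.2 and 29.8% with the readthrough gene SENP3-EIF4A1, both on the same strand, so its level is uncertain. The cofactor EIF4B had 430, 487 and 419 TPM in PRMT1-OV and 502, 562 and 319 TPM in Mock libraries, where Mock replicate 3 was far below the others, and EIF4H had 657, 691 and 641 TPM in PRMT1-OV and 728, 783 and 585 TPM in Mock libraries. On the deposited scale EIF4A1, EIF4B and EIF4H had log2FC values of -0.18, -0.01 and -0.06, which did not pass. All of them passed as lower without Mock replicate 3 (-0.27, -0.26 and -0.19) and without both libraries that stand apart (-0.31, -0.32 and -0.22). EIF4A1 and EIF4H also passed as lower after median-of-ratios scaling (-0.52 and -0.42) and GC correction (-0.52 and -0.36). For EIF4A1 this held after quantile normalization too (-0.48). EIF4A3, a helicase of the exon junction complex, had a log2FC of 0.20 (adjusted p = 0.0557); it passed as higher after quantile normalization (0.22) and without PRMT1 (0.31), and as lower after GC correction (-0.17).

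EIF6, which keeps the large ribosomal subunit from joining too early, had 242, 260 and 247 TPM in PRMT1-OV and 212, 223 and 223 TPM in Mock libraries. It rose by 0.19 on the log2 scale (SE 0.06, limma adjusted p = 0.0364), and the call was lost in 5 of the 6 leave-one-out fits (adjusted p 0.0686 to 0.139, all but the one without Mock replicate 3); the sign turned after median-of-ratios scaling (-0.17). EIF5B, the GTPase of subunit joining, did not pass (0.10). EIF5A, which frees stalled ribosomes and is the most abundant of the members, had 1698, 1717 and 1682 TPM in PRMT1-OV and 1757, 1686 and 1884 TPM in Mock libraries. Its paralog EIF5A2 had 3.99, 4.55 and 3.51 TPM in PRMT1-OV and 3.94, 3.42 and 3.42 TPM in Mock libraries. Both pairs of groups overlapped, and neither gene passed on the deposited scale. EIF5A passed as lower after median-of-ratios scaling (-0.42) and GC correction (-0.29) and as higher after quantile normalization (0.23), and EIF5A2 as lower after quantile normalization (-0.33) and GC correction (-0.38). EIF5AL1, a copy of EIF5A whose reads are uncertain, had a log2FC of -0.28 that did not pass, and passed as lower after median-of-ratios scaling (-0.60), quantile normalization (-0.73) and GC correction (-0.66).

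**Figure D3:**
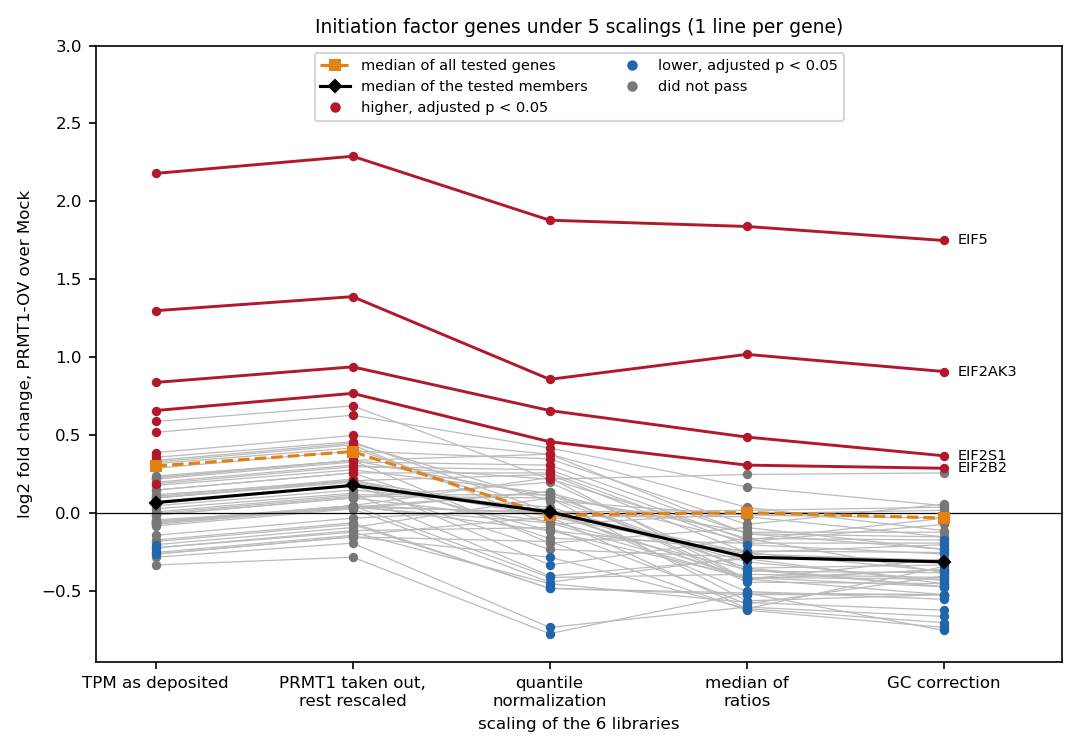
Log2 fold change of the 53 tested members (1 line each), PRMT1-OV over Mock, under the deposited TPM scale and 4 other scalings, coloured by the limma call. EIF5, EIF2AK3, EIF2S1 and EIF2B2 (red lines) stay above 0 and pass under all 5. The median of the members (black) is 0.07 on the deposited scale, 0.18 without PRMT1 and 0.01 after quantile normalization. It is -0.28 after median of ratios and -0.31 after GC correction.

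Ratios within a library do not depend on how its total was scaled, and 10 pairs of paralogs or partners were compared by an exact two-sided permutation test, whose smallest p with 3 libraries a group is 0.1. The EIF4EBP1 to EIF4E ratio was 30.0, 23.7 and 29.8 in PRMT1-OV libraries, against 35.9, 35.4 and 56.2 in Mock libraries, a mean log2 difference of -0.59. Without Mock replicate 3, which was the highest, that difference was -0.37. The EIF4E3 to EIF4E ratio was 0.449, 0.460 and 0.474 in PRMT1-OV libraries, against 0.534, 0.561 and 0.603 in Mock libraries, a mean log2 difference of -0.30. These were the pairs of the 10 whose groups did not overlap, each with an exact p of 0.1 and 0.5 after adjustment over the 10 pairs. The other 8 overlapped. The EIF4A2 to EIF4A1 ratio was 8.05, 8.86 and 7.36 in PRMT1-OV and 7.94, 8.86 and 8.76 in Mock libraries. Its size is uncertain, because EIF4A1 shares much of its exonic length with other genes on the same strand. The EIF1B to EIF1 ratio was 0.226, 0.238 and 0.215 in PRMT1-OV and 0.225, 0.211 and 0.230 in Mock libraries.

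The 81 EIF-named pseudogenes, which resemble members and could take reads from them, summed to 59.5, 72.3 and 64.8 TPM in PRMT1-OV and 63.4, 69.5 and 50.0 TPM in Mock libraries. The members summed to 10435, 11310 and 10241 TPM in PRMT1-OV and 10949, 11093 and 10562 TPM in Mock libraries. Both ranges overlapped between the groups.

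Other translation genes showed rises and falls side by side. Of 9 tested genes that act in elongation or carry the name of an elongation factor, 3 rose and 5 fell on the deposited scale. Over all tested genes 40.3% rose and 8.64% fell there. After median-of-ratios scaling 2 rose and 6 fell (all genes 23.5% and 24.1%), and after quantile normalization 2 rose and 2 fell (all genes 20.3% and 19.4%). EEFSEC, which delivers selenocysteine, had 54.0, 52.9 and 56.0 TPM in PRMT1-OV libraries, against 21.6, 20.2 and 25.2 TPM in Mock libraries, a log2FC of 1.25 (SE 0.10, limma adjusted p = 0.000136). EEF2K, the kinase that inhibits the translocase eEF2, rose by 0.84 on the log2 scale. EEF1E1, listed here by its name, rose by 0.63. It lost its call after median-of-ratios scaling (0.29), quantile normalization (0.42) and GC correction (0.15). EEF2 itself had 6409, 6307 and 6876 TPM in PRMT1-OV libraries, against 8339, 8921 and 7112 TPM in Mock libraries, and fell by 0.31 (adjusted p = 0.0209). The call was lost after quantile normalization (-0.08, adjusted p = 0.615) and without PRMT1 (-0.20, adjusted p = 0.0946). EEF1A1 and EEF1A2 also fell and lost their calls in these settings. EEF1D (-0.41) and EEF1G (-0.60) passed as lower on the deposited scale and under each other scaling, GC correction included. EEF1G rests on 246 recovered reads over the PRMT1-OV and 388 over the Mock libraries. These EEF1 genes were named after their values were seen.

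Of 5 tested termination and recycling genes 3 rose and 2 did not pass, beside 40.3% of all tested genes that rose (2 rose and 2 fell after median-of-ratios scaling, beside 23.5% and 24.1%). ABCE1, which splits ribosomes after termination, had a log2FC of 0.90, the release factor ETF1 0.63 and its partner GSPT1 0.51; GSPT1 lost its call after median-of-ratios scaling (0.15) and GC correction (0.06), and ETF1 after GC correction (0.22). Of 14 auxiliary initiation and mRNA-binding genes 6 rose and 2 fell, and the 6 are near the share of all tested genes that rose (40.3%, with 8.64% that fell). After median-of-ratios scaling 4 rose and 4 fell (all genes 23.5% and 24.1%). GIGYF2, the partner of EIF4E2, had a log2FC of 1.07, the helicase DDX3X 0.93 and PDCD4, an inhibitor of eIF4A, 0.86 (adjusted p = 0.00249, 0.00134 and 0.00521). PABPC1, the poly(A)-binding protein that links the tail to eIF4G, had 1174, 1399 and 1160 TPM in PRMT1-OV libraries, against 1675, 1701 and 1596 TPM in Mock libraries, and fell by 0.42 (adjusted p = 0.00457). After quantile normalization it had -0.08 and did not pass (adjusted p = 0.538).

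Among 6 genes that control or answer to eIF2 phosphorylation, 3 rose and 1 fell, beside 40.3% and 8.64% of all tested genes (2 and 2 after median-of-ratios scaling, beside 23.5% and 24.1%). PPP1R15B, the subunit that brings the phosphatase to eIF2 in unstressed cells, had 33.6, 39.9 and 32.3 TPM in PRMT1-OV libraries, against 61.9, 66.6 and 47.1 TPM in Mock libraries. It fell by 0.71 on the log2 scale (SE 0.14, limma adjusted p = 0.00532), and by 1.06 after median-of-ratios scaling. IMPACT, an inhibitor of GCN2, rose by 0.71, and DNAJC3, known as an inhibitor of PKR and PERK, by 0.62; after GC correction these were 0.23 and 0.17, and DNAJC3 did not pass. ATF4, the transcription factor whose translation increases when eIF2 is phosphorylated, had 751, 744 and 755 TPM in PRMT1-OV libraries, against 629, 666 and 688 TPM in Mock libraries. Its log2FC was 0.18 (limma adjusted p = 0.0303). It passed as higher after quantile normalization (0.44) and without PRMT1 (0.29). After median-of-ratios scaling (-0.17) and GC correction (-0.06) it did not pass. Neither phosphorylated eIF2 nor any protein was measured here.

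In the list of mTOR and MNK signalling to the eIF4 proteins, 4 of 11 rose, near the share of all tested genes (40.3%), and 2 fell (8.64% of all). After median-of-ratios scaling 3 rose and 6 fell (all genes 23.5% and 24.1%), and after quantile normalization 1 rose and 1 fell (20.3% and 19.4%). RPS6KB1, an S6 kinase, had a log2FC of 0.79, TSC1, a brake on mTOR, 0.71 and the mTORC1 scaffold RPTOR 0.69 (adjusted p = 0.00695, 0.0026 and 0.00165). After quantile normalization RPS6KB1 (0.37) and TSC1 (0.25) did not pass. RPS6KB2, the paralog of RPS6KB1, named after its values were seen, had 43.5, 38.5 and 41.8 TPM in PRMT1-OV libraries, against 53.0, 52.4 and 48.7 TPM in Mock libraries, and fell by 0.31 (adjusted p = 0.0158), a call that was lost without PRMT1 (-0.20). Both enzymes that make hypusine on eIF5A passed, in opposite directions, on the deposited scale, where 49.0% of all tested genes passed in either direction. DHPS, the first, had 57.2, 59.0 and 62.7 TPM in PRMT1-OV libraries, against 84.5, 86.3 and 90.5 TPM in Mock libraries, and fell by 0.54 (adjusted p = 0.000967). DOHH, the second, rose by 0.34 (adjusted p = 0.0148) and had -0.01 after median-of-ratios scaling and 0.11 after quantile normalization, neither past the threshold.

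**Figure D4:**
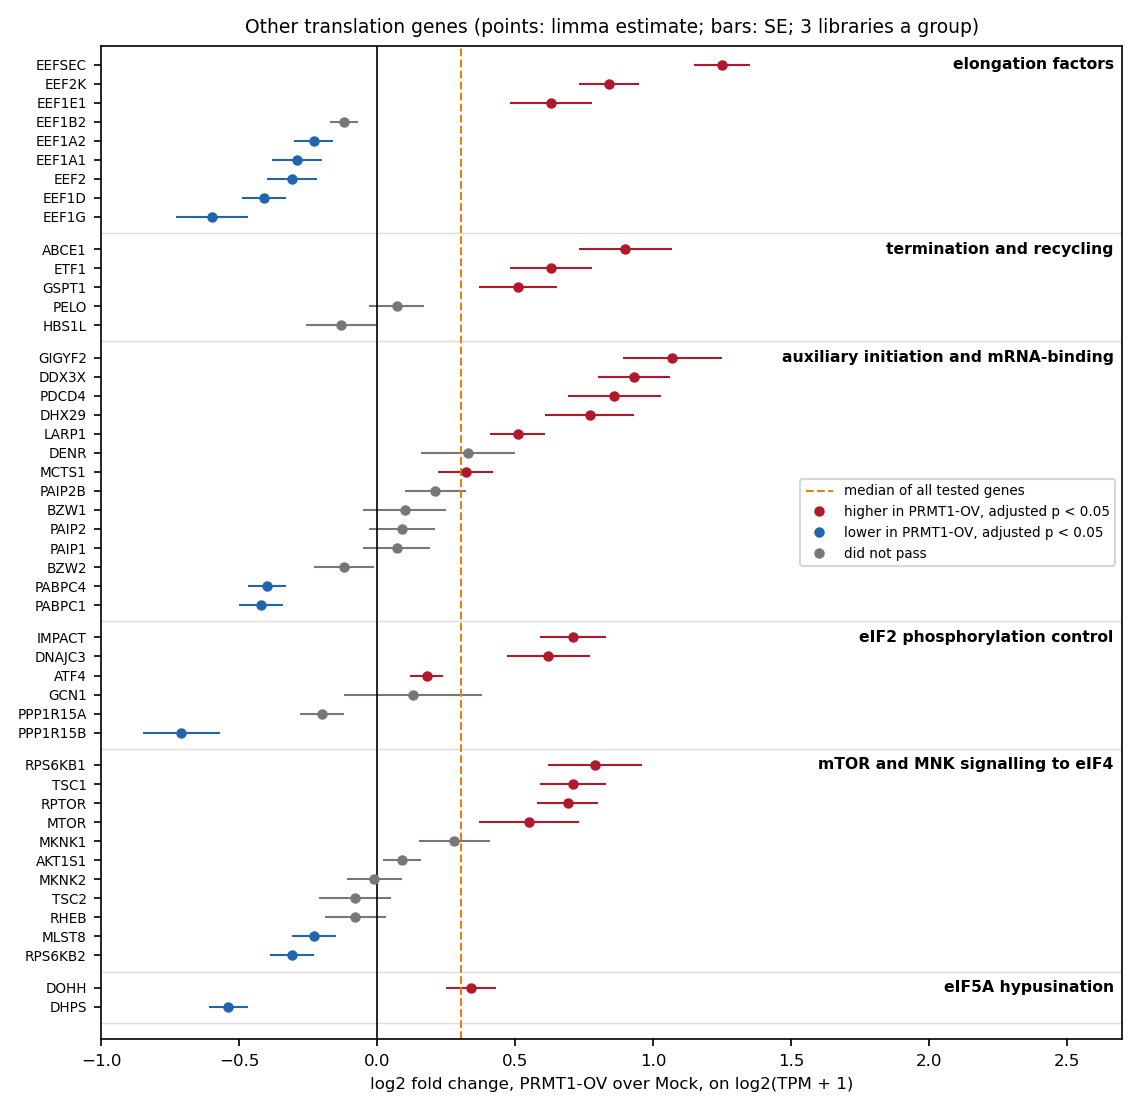
Log2 fold change of the tested genes in the elongation, termination, auxiliary, eIF2 control, mTOR and hypusination lists, PRMT1-OV over Mock on log2(TPM + 1). Points are shown with the standard error, 3 libraries a group. Red points rose and blue points fell at an adjusted p below 0.05 on the deposited scale, from EEFSEC (1.25) to PPP1R15B (-0.71); the dashed line is the median of all tested genes (0.30). After median-of-ratios scaling DOHH lay at -0.01 and ATF4 at -0.17, and after quantile normalization they lay at 0.11 and 0.44.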

How the data were processed

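PolyA-selected RNA of 3 PRMT1-OV and 3 Mock libraries of HEK293T cells was sequenced, and the authors deposited 1 table of TPM per Ensembl gene. The submitters' processing notes list STAR 2.5.2b, Subread 1.5.2, featureCounts and Trimmomatic 0.36, and the build GRCh38. The annotation, the strand setting and how TPM was computed are not given in the sources. TPM sums to 1000000 per library, and the large PRMT1 share therefore lowers the other genes of PRMT1-OV libraries.

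The 15341 genes that reached 1 TPM in 3 or more of the 6 libraries were tested on log2(TPM + 1) with limma 3.58.1 with trend in R 4.3.3, PRMT1-OV over Mock, with Benjamini-Hochberg adjustment over all of them and a threshold of 0.05. TPM holds no counts, so no count test was the main result. Symbols came from a gene name table (40907 of 57500 identifiers had one). Positions, exonic lengths and the GC content of the longest transcript of each gene came from GENCODE 29 (56898 identifiers), and promoters from RefSeq (GRCh38.p14). Reads were recovered as TPM times exonic length over the step of each library; 95.6 to 95.9% of values under 50 reads came out whole within 0.05 reads, where chance gives 10%. Ratios were tested by exact permutation.

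The members, complexes and partner lists were chosen with earlier results of these data known. Any member could be named. Values in every library were given for those past the threshold with a log2 fold change of at least 0.5 and for the members of the 10 pairs, and for other members as a result required. From each partner list up to 3 genes past the threshold with the largest change were named, with ATF4, EEF2 and PABPC1 in any case. Divergent RNAs, pseudogenes, RPS6KB2, EEF1A1, EEF1A2, EEF1D and EEF1G were added after their values were seen.

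The fit was tested on simulated data in which 200 of 15341 genes were changed, far fewer than were called here. It recovered 20.9% of log2 changes of 0.5, 85.1% of those of 1.0 and 100.0% of those of 2.0. Of 15141 unchanged genes 5 were called. Changes of 0.5 were thus often missed in the simulation. The changed genes were drawn only from those above a set mean level. In the data 49.0% of tested genes passed, so the adjustment there allowed a larger unadjusted p. These recovery rates therefore do not give the sensitivity of the reported fit. Alternatives were median-of-ratios scaling, quantile normalization, PRMT1 taken out, no filter or one at 5 TPM, a pseudocount of 0.1 or 5 TPM, a GC correction (loess, span 0.5), a replicate block and leaving out libraries.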

Additional observations from a re-analysis of the deposited data

How the results depend on the processing

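Over the 16 alternatives EIF5, EIF2AK3, EIF2S1 and EIF2B2 kept direction and call. The number of members called higher (10) became 4 after median-of-ratios scaling, 21 without PRMT1 and 4 after GC correction, and ran from 7 to 10 when 1 library was left out. The number called lower (5) became 2 with no filter, 28 after median of ratios, 9 after quantile normalization, 0 without PRMT1, 31 after GC correction, 14 without both libraries that stand apart, and 0 (without PRMT1-OV replicate 1) to 8 (without Mock replicate 3) when 1 was left out. All genes called higher (6190) became 3604, 3109 and 3531 after median of ratios, quantile normalization and GC correction, and ran from 5082 to 5634 with 1 library left out. All genes called lower (1325) became 3692, 2979, 880, 3986 and 2115 after median of ratios, quantile normalization, PRMT1 removal, GC correction and removal of both libraries that stand apart, and ran from 935 to 1520.

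Signs turned, with a call on at least 1 side, for these members. After median of ratios the log2 fold change was -0.01 for EIF2B1, -0.20 for EIF3A, -0.25 for EIF3D, -0.35 for EIF3E and EIF3L, -0.31 for EIF3M, -0.24 for EIF4E2, -0.29 for EIF4E3, -0.28 for EIF4G3 and -0.17 for EIF6. After GC correction it was -0.11 for EIF1AX, -0.03 for EIF2B1 and EIF6, -0.26 for EIF3A, -0.20 for EIF3D, -0.47 for EIF3E, -0.33 for EIF3L, -0.43 for EIF3M, -0.17 for EIF4A3, -0.25 for EIF4E2, -0.45 for EIF4E3, -0.23 for EIF4G2, -0.30 for EIF4G3 and -0.38 for EIF5A2. After quantile normalization it was 0.10 for EIF3I, -0.40 for EIF4E3, 0.23 for EIF5A and -0.33 for EIF5A2, and without both libraries that stand apart -0.24 for EIF3L. The cause was not tested.

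Deviations of same-numbered libraries from their group means had correlations of -0.033, 0.059 and 0.02, which show no sign of pairing. With 3 libraries a group they cannot exclude it, and the labels name no pairs. With a replicate block 9 members were higher and 5 lower. EIF2D (limma adjusted p = 0.0751) and EIF6 (0.0577) no longer passed, and EIF4A2 (-0.26, 0.035) now passed as lower. The block changed no other member's call. Among the 15 members called on the deposited scale, EIF2AK3 rests on the fewest recovered reads (666 over the PRMT1-OV and 206 over the Mock libraries).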
